A study of Rattus norvegicus with 16 samples.

Results

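The immediate early and activity-regulated genes examined here are 38 rat genes, of 15709 gene symbols on the array, whose transcripts neurons make within minutes to hours of synaptic activity. They were chosen by name, as every probe whose accession maps to a listed gene. All 38 were on the array, 34 with 1 probe and 4 with 2 probes (Fosl2, Egr3, Nr4a2 and Ier5). Of them 32 were bright enough to test and 6 were not (Fosl1, Egr3, Npas4, Maff, Ptgs2 and Zfp36).

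RNA came from primary hippocampal neuron cultures of embryonic day 18 Sprague-Dawley rats, and was measured on 1-colour Agilent arrays. The study asked how hydroxyurea, an inhibitor of the enzyme that makes deoxynucleotides, acts on such neurons. Cultures received 5 µM hydroxyurea for 2, 6, 12 or 24 h or stayed untreated, with 3 samples in each of the 5 groups. The labels name no genotype and no other agent for any group. Before the drug was added, medium with 5% B27 supplement was exchanged for medium whose B27 lacked antioxidants, per the growth protocol. The time that untreated cultures stood in the new medium is not given, so the time since the exchange and the drug cannot be told apart. One field gives cultures of 6 to 9 days and another days in vitro 6 to 8. The extraction protocol speaks of hippocampal tissue. Nothing says that the samples of a group were separate cultures, and the errors below may hold technical spread alone.

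Synaptic activity lets calcium into the neuron and switches on kinases, which act on transcription factors that already sit on these genes, among them CREB and the serum response factor. The genes are therefore transcribed without new protein synthesis, and many of their mRNAs are short-lived. A first set encodes transcription factors such as Fos and Egr1, and a second acts at the synapse or shuts the signal off again, such as Arc and the MAP kinase phosphatases. In the hippocampus they serve as markers of recently active neurons, and many also respond to growth factors or stress in other cells.

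The number of arrays, 16 for the 15 samples, limits the precision. The share of probes well above background ran from 64.7% to 70.4% per array, and 0 spots were saturated. Spots of the same probe varied by 3.37% to 6.89% (median coefficient of variation) on 14 arrays. For 12 h replicate 3 that figure was 21.5%, and for the first array of untreated replicate 1 it was 10.8%. In a principal component analysis of all features the first axis held 29.7% of the variance, with 12 h replicate 3 at -67.2 and the other samples between -5.21 and 11.6. All 8 neuron markers on the array, such as Map2 and Snap25, were well above background on every array. So were all 10 astrocyte markers and 9 of 10 of the oligodendrocyte lineage. Of 10 microglia markers 6 were, with Itgam on 0 arrays, and of 10 fibroblast and pericyte markers 7 were, with Rgs5 on 0. Of 10 endothelium markers 4 were, and Flt1, Esam, Emcn, Tek, Tie1 and Cldn5 were on 0.

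Some promoters of these genes hold the letters of sites that CREB and the serum response factor are known to bind. Promoters of 250 bases before the start site were taken from RefSeq's rat build GRCr8 and matched 29 of the 38 genes. No promoter of that length was available here for Arc, Dusp4, Egr3, Fos, Ier3, Jun, Klf10, Klf2 and Nr4a3, so these were not searched. Both strands were searched. The cyclic AMP response element TGACGTCA, the full site for CREB, was found in 5 of the 29 (17.2%; Btg2, Dusp1, Ier2, Jund and Maff) and in 1.70% of all 27457 promoters of that length. Its core TGACG, which the full element contains, was found in 18 of 29 (62.1%) and in 19.0% of all promoters. The CArG box, the site of the serum response factor, was found in 6 of 29 (20.7%; Dusp5, Egr1, Egr2, Klf6, Srf and Zfp36) and in 1.50% of all. The EGR site GCGTGGGCG was found in 2 (6.90%; Jund and Maff) against 0.514%, and the TATA box TATAAA in 6 (20.7%) against 13.1%. These letters describe the windows and show no binding, and no match says only that the letters are not in the window. The promoters below belong to genes whose values are followed sample by sample, and show the CArG box and the core in their settings. Capitals mark each core, on either strand, and each CArG box. The window of Egr1 is chr18:26736828-26737077 on the plus strand and holds 2 CArG boxes and 2 cores. That of Klf6 is chr17:69458479-69458728 on the minus strand, with 1 CArG box. Dusp1 lies at chr10:17184603-17184852 on the plus strand, with 3 core matches, of which a pair overlaps in the 1 full element. Nr4a1 lies at chr7:134259888-134260137 on the plus strand, with 4 cores.
Egr1: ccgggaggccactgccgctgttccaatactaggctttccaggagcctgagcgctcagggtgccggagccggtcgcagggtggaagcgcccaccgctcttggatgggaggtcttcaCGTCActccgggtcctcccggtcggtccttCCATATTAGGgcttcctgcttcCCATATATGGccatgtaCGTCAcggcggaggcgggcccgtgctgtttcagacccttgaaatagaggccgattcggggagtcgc
Klf6: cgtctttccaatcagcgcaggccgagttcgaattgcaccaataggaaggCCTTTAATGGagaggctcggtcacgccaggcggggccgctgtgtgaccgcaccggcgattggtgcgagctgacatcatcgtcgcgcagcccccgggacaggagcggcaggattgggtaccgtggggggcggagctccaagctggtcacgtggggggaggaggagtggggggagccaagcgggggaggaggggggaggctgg
Dusp1: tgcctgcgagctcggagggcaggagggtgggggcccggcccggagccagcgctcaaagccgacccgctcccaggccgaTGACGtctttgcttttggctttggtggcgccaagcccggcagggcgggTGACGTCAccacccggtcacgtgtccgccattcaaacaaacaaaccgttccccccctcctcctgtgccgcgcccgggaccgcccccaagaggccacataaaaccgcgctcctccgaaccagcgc
Nr4a1: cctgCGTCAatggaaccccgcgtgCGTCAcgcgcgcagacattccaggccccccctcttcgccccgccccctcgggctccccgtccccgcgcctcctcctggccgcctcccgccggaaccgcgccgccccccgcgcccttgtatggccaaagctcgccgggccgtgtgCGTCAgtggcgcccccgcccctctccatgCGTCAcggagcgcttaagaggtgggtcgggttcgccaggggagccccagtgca

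Hydroxyurea gave no detected change in the tested genes at any of the 4 times. Of 32 tested genes, 0 passed limma's test at an adjusted p of 0.05 at 2, 6, 12 or 24 h, and the percentage over all 18122 features tested was likewise 0 at each time. At an unadjusted p under 0.05, 0 of the 32 passed at any of the 4 times, against 1.19% of all features at 2 h, 0.739% at 6 h, 2.32% at 12 h and 0.866% at 24 h. The mean of the 4 times against untreated gave 0 genes at either threshold, against 0% and 1.68% of features. The test for any difference among the 5 groups also gave 0 at either, against 0% and 0.872%. Between 24 h and 2 h, 0 genes passed the adjusted test (0% of features), and 1 (Nr4a3) had an unadjusted p under 0.05, against 0.756% of features. The adjusted p-values of the genes from limma lay between 0.9965 and 1. Because the samples are bulk RNA, fewer cells of a type and less RNA per cell cannot be told apart.

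At the 4 sampled times the intervals of the fit bound how large a difference in the tested genes could have gone unseen. They hold for the processing used in the fit, and differences of some genes, such as Dusp1, changed sign under another background correction (below). If the samples of a group were not separate cultures, the intervals do not bound a difference between cultures. A change that rose and fell before 2 h was not sampled, and genes that were not tested have no such bound. The 95% interval of each of the 32 genes lay inside -1 to 1 on the log2 scale, a 2-fold difference either way, in every one of the 4 comparisons with untreated. It lay inside -0.5 to 0.5, or 1.41-fold, for 21 genes at 2 h, 25 at 6 h, 21 at 12 h and 22 at 24 h. The highest upper bound was that of Ier2 at 12 h, 0.89 or 1.85-fold. The lowest was that of Ier2 at 24 h, -0.88 or 0.544-fold. These are intervals of single genes, not adjusted for their number. For the mean of the 4 times, 28 of the 32 intervals lay inside -0.5 to 0.5, the exceptions being Egr1, Dusp1, Fosb and Sik1.

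**Figure D1:**
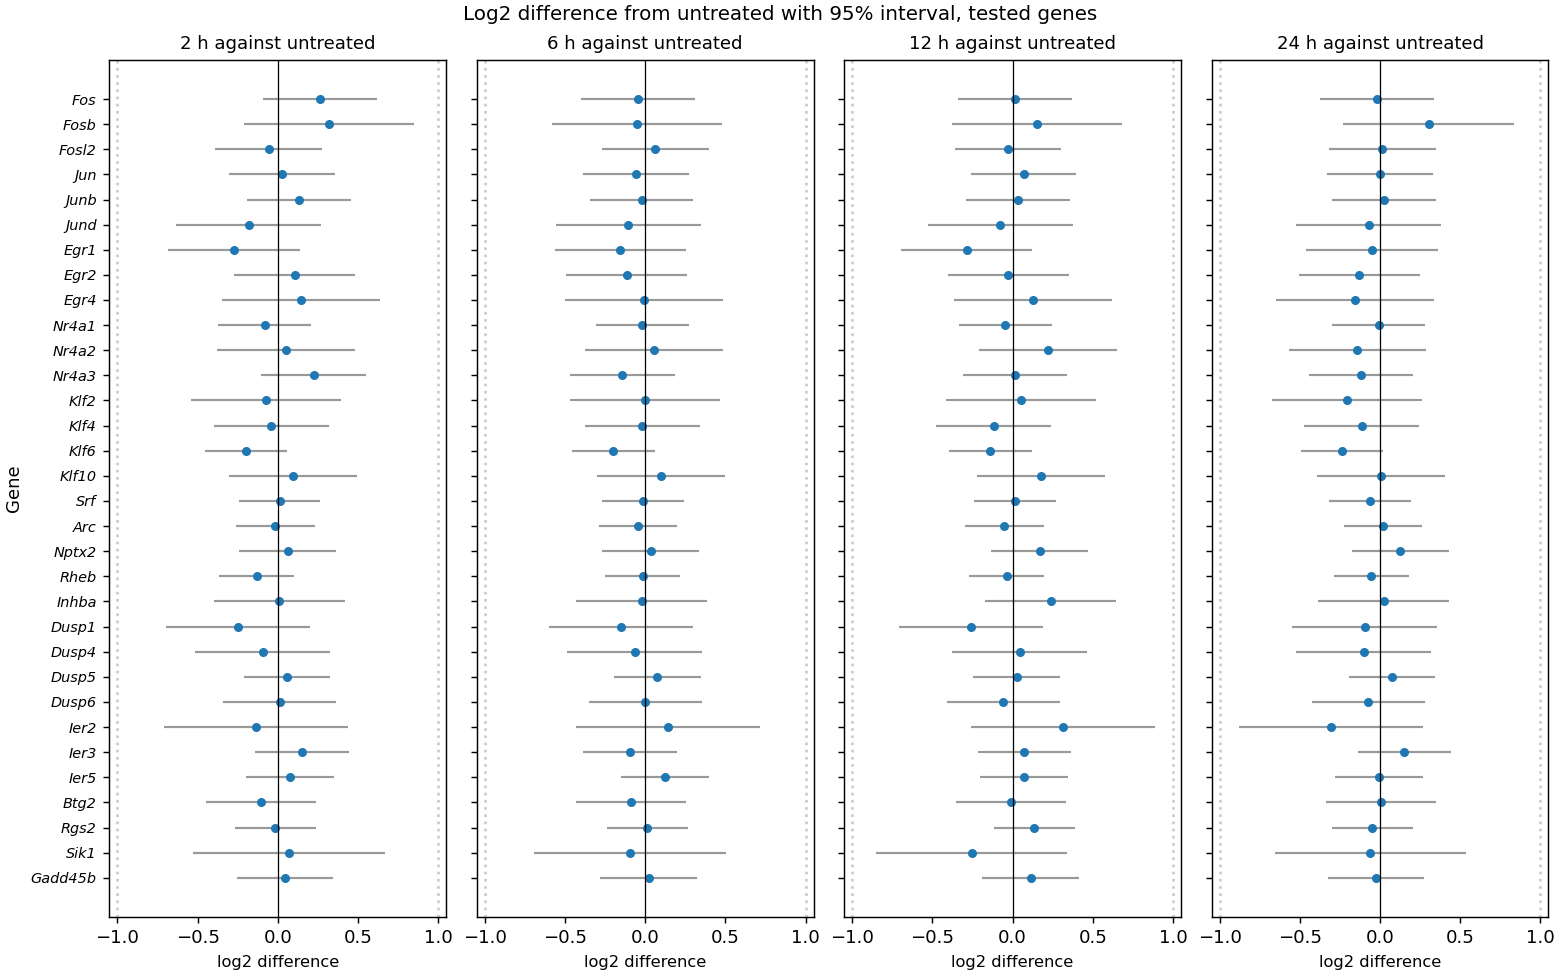
Log2 difference from untreated (horizontal axis) of the 32 tested genes (vertical axis, by role) at 2, 6, 12 and 24 h; points are limma estimates, bars their 95% intervals, and dotted lines mark a 2-fold difference. Every interval crosses 0 and stays inside the dotted lines.

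As a group the genes had small median differences from untreated, while the share with a higher mean varied with time and with processing. Their median log2 difference was 0.01 at 2 h, -0.02 at 6 h, 0.02 at 12 h and -0.05 at 24 h, beside medians over all features of 0.00, -0.00, 0.02 and 0.01. A mean above that of untreated samples was seen for 18 of 32 (56.3%) at 2 h, 10 (31.3%) at 6 h, 19 (59.4%) at 12 h and 11 (34.4%) at 24 h. Over all features the shares were 50.5%, 47.9%, 55.4% and 54.6%. It was 15 (46.9%) for the mean of the 4 times, against 50.9% of features, and 12 (37.5%) for 24 h against 2 h, against 52.9%. Under normexp background correction, which moved the medians of all features to 0.04, 0.04, 0.10 and 0.05, 21, 19, 22 and 17 of the 32 were higher at the 4 times, against 63.9%, 64.1%, 70.7% and 69.0% of features. At 24 h the count was 17 without 24 h replicate 2 (50.5% of features) and 7 under quantile normalization (45.0%). Within slide 2 it was 19 at 6 h (56.7%) and 23 for the mean of the 4 times (57.1%). The median size of the difference, whatever its sign, was 0.09, 0.05, 0.07 and 0.07 at the 4 times, beside 0.08, 0.06, 0.11 and 0.08 over all features.

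AP-1 is the dimeric factor that Fos and Jun proteins form. Of its 6 tested subunits 4 had a higher mean at 2 h, 1 at 6 h, 4 at 12 h and 4 at 24 h, and 0 passed the test. All levels below are log2 signals less the array's 75th percentile, given for replicates 1, 2 and 3 in that order. Fos (NM_022197), the best known marker of neuronal activity, was at -4.78, -4.66 and -4.75 in untreated samples and at -4.43, -4.39 and -4.59 at 2 h. All 3 samples at 2 h lay above all untreated ones. The later levels were -5.06, -4.47 and -4.79 at 6 h, -4.72, -4.42 and -5.01 at 12 h and -4.57, -4.90 and -4.78 at 24 h. At each of these times the samples spread to either side of the untreated ones, whose SD was the smaller (-4.73 ± 0.06 (SD, n = 3) against -4.68 ± 0.23 (SD, n = 12) under treatment). The log2 difference at 2 h was 0.26 (SE 0.17, 95% interval -0.09 to 0.62), or 1.2-fold, and did not pass. It was 0.25 with the slide as a block, 0.34 within slide 1 and 0.15 within slide 2, where the only 2 h sample was replicate 3.

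Fosb (NM_001256509), whose truncated product builds up with repeated activity, was at -2.46, -2.28 and -2.26 in untreated samples. Its treated levels were -2.42, -1.96 and -1.65 at 2 h, -2.33, -2.54 and -2.28 at 6 h, -1.68, -2.47 and -2.38 at 12 h and -2.52, -1.89 and -1.68 at 24 h. At 2 h and at 24 h replicates 2 and 3 lay above all untreated samples and replicate 1 did not, and at 12 h replicate 1 alone did, so the groups overlapped. The largest differences were 0.32 (SE 0.25, 95% interval -0.21 to 0.85) at 2 h and 0.30 (SE 0.25) at 24 h. Without 2 h replicate 3 the first was 0.14, and without 24 h replicate 3 the second was 0.13. Junb (NM_021836), a Jun family subunit with weaker activating power than Jun, was at -0.32, -0.15 and -0.17 in untreated samples. Under treatment it was at -0.16, -0.16 and 0.07 at 2 h, -0.37, -0.32 and -0.02 at 6 h, -0.24, -0.44 and 0.15 at 12 h and -0.15, -0.32 and -0.09 at 24 h. Every treated group overlapped the untreated one, and the difference over the mean of the 4 times was 0.04 (SE 0.12, 95% interval -0.21 to 0.30). Jun, Jund and Fosl2 had differences between -0.18 (Jund at 2 h) and 0.07 (Jun at 12 h) over the 4 times. The second probe of Fosl2 gave 0.06, 0.16, 0.16 and 0.13, beside -0.06, 0.06, -0.03 and 0.01 for the probe tested.

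**Figure D2:**
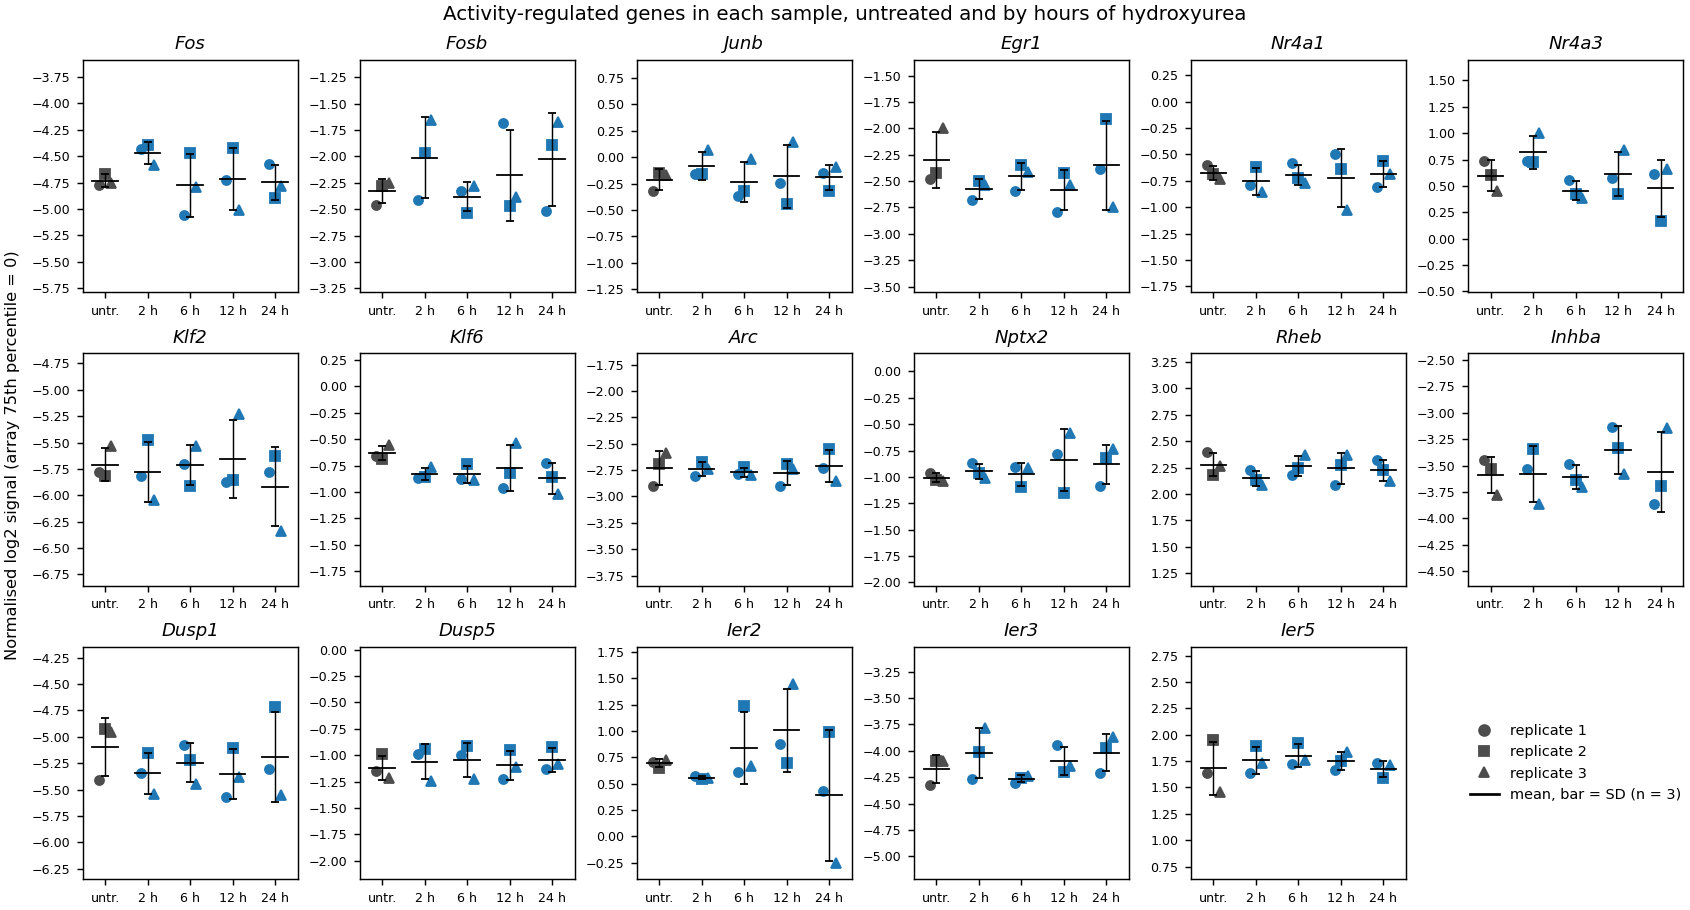
Normalised log2 signal (vertical axis, array 75th percentile set to 0) of 17 genes in untreated samples (grey) and by hours of hydroxyurea (blue); marker shape gives the replicate, and lines give the group mean with its SD (n = 3). Fos lies above its untreated samples at 2 h, Klf6 lies below its untreated samples in 11 of 12 treated ones (7 of 12 with the repeat array of untreated replicate 1 alone), and Ier2 spreads most at 24 h; each panel spans the same number of log2 units but has its own range.

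The EGR zinc finger factors, which read growth factor and synaptic signals, gave no detected change. Of 3 tested, 2 had a higher mean at 2 h, 0 at 6 h, 1 at 12 h and 0 at 24 h, and 0 passed. Egr1 (NM_012551), whose promoter above carries 2 CArG boxes, was at -2.48, -2.43 and -1.997 in untreated samples and at -2.68, -2.50 and -2.54 at 2 h. At 2 h every sample lay below every untreated one, with untreated replicate 3 well above its fellows. With the repeat array of untreated replicate 1 alone, at -2.58, the groups overlapped. Later levels of Egr1 were -2.59, -2.35 and -2.42 at 6 h, -2.79, -2.43 and -2.54 at 12 h and -2.39, -1.91 and -2.75 at 24 h. These overlapped with untreated samples, and 24 h replicate 2 was the highest of all 15. The difference was -0.27 (SE 0.19, 95% interval -0.69 to 0.14) at 2 h, or 0.827-fold, and -0.29 (SE 0.19, 95% interval -0.70 to 0.12) at 12 h. Without untreated replicate 3 it was -0.12 at 2 h, -0.14 at 12 h and -0.04 for the mean of the 4 times, against -0.19 with it. At 2 h it was -0.23 with the slide as a block, -0.19 within slide 1 and -0.25 within slide 2, again with replicate 3 as the only 2 h sample there. Egr2 stood at 0.10, -0.12, -0.03 and -0.13 and Egr4 at 0.14, -0.01, 0.13 and -0.15 at the 4 times, with SEs of 0.17 and 0.23.

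The NR4A orphan nuclear receptors, induced by cyclic AMP and calcium and needed in rodents for forms of hippocampal memory, had 2 of 3 genes with a higher mean at 2 h, 1 at 6 h, 2 at 12 h and 0 at 24 h, and 0 passed. Nr4a1 (NM_024388) was at -0.60, -0.69 and -0.73 in untreated samples. Treated samples were at -0.79, -0.62 and -0.86 at 2 h, -0.58, -0.73 and -0.77 at 6 h, -0.49, -0.64 and -1.03 at 12 h and -0.80, -0.56 and -0.69 at 24 h. Each treated group overlapped the untreated one, and the mean difference was -0.04 (SE 0.11, 95% interval -0.27 to 0.19). Nr4a3 (NM_031628) was at 0.74, 0.60 and 0.45 in untreated samples. With treatment it was at 0.73, 0.73 and 1.00 at 2 h, 0.56, 0.43 and 0.38 at 6 h, 0.57, 0.43 and 0.84 at 12 h and 0.61, 0.17 and 0.66 at 24 h. The samples at 2 h reached highest and those at 24 h lay below all of them, while each group overlapped untreated. Its difference was 0.22 (SE 0.15, 95% interval -0.10 to 0.55) at 2 h and -0.34 (SE 0.15, 95% interval -0.67 to -0.02) from 2 h to 24 h. The latter is the 1 unadjusted call named above (limma, adjusted p = 1). It was -0.33 with the slide as a block, -0.07 within slide 1 and -0.61 within slide 2, and -0.19 without 24 h replicate 2. Within slide 1 the only 24 h sample was replicate 3, and within slide 2 the only 2 h sample was replicate 3. Nr4a2, which also specifies dopamine neurons, stood at 0.05, 0.05, 0.22 and -0.14 at the 4 times. Its second probe gave -0.11, -0.06, 0.03 and -0.05.

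Among the Krüppel-like factors, Klf6 had a lower mean than untreated at all 4 times, and none of these differences passed the test. Klf6 (NM_031642), a zinc finger factor that promotes axon growth in zebrafish and mouse neurons, was at -0.66, -0.68 and -0.56 in untreated samples. Its treated levels were -0.87, -0.85 and -0.77 at 2 h, -0.87, -0.74 and -0.88 at 6 h, -0.96, -0.82 and -0.54 at 12 h and -0.73, -0.86 and -1.02 at 24 h. Of the 12 treated samples 11 lay below all 3 untreated ones, and 12 h replicate 3 lay above them. That count takes the mean of both arrays of untreated replicate 1, and with its repeat array alone 7 of 12 lay below all untreated ones. The untreated mean was -0.63 ± 0.07 (SD, n = 3), and that of all treated samples was -0.83 ± 0.12 (SD, n = 12). Differences were -0.20 (SE 0.12, 95% interval -0.45 to 0.06) at 2 h, -0.20 (SE 0.12, 95% interval -0.46 to 0.06) at 6 h, -0.14 (SE 0.12, 95% interval -0.40 to 0.12) at 12 h and -0.24 (SE 0.12, 95% interval -0.49 to 0.02) at 24 h. Without 12 h replicate 3 the value at 12 h was -0.26. For the mean of the 4 times the difference was -0.19 (SE 0.09, 95% interval -0.40 to 0.01) (limma, adjusted p = 1).

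The Klf6 difference varied with slide and array. It was -0.19 with the slide as a block, -0.33 within slide 1 and -0.09 within slide 2. Untreated replicate 1, hybridised on both slides, read -0.49 on its first array and -0.83 on its repeat array. With the repeat array alone the mean difference was -0.14, and with the first alone -0.25. Normexp background correction gave -0.09. The log2 of the summed signal of 10 astrocyte markers, in which the brightest weigh most, was 6.82 to 7.12 in untreated samples. It was 7.18 to 7.26 at 2 h, 7.16 to 7.21 at 6 h, 7.22 to 7.48 at 12 h and 7.12 to 7.30 at 24 h. Groups that did not overlap untreated were seen for 1 of the 10 markers (10%) at 2 h and 1 (10%) at 6 h. They were seen for 2 (20%) at 12 h and 0 (0%) at 24 h. Over all features the shares were 6.35%, 3.84%, 5.07% and 2.94%. Of these markers 9 of 10 had a higher mean over the 4 times than in untreated samples, against 50.9% of all features. Among tested markers of other types the count was 4 of 8 for neuron, 5 of 7 for microglia and 5 of 9 for oligodendrocyte lineage. The count was 2 of 4 for endothelium and 2 of 9 for fibroblast and pericyte. The part of any of these markers in the Klf6 values was not tested. The log2 of the summed signal of the 8 neuron markers was 6.76 to 6.86 in untreated samples and 6.63 to 7.14 in treated ones.

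Of the other Krüppel-like factors, Klf2 (NM_001007684), best known from endothelium and quiescent lymphocytes, was well above background on 13 of 16 arrays. It was at -5.78, -5.82 and -5.53 in untreated samples and at -5.82, -5.48 and -6.04 at 2 h, -5.70, -5.91 and -5.53 at 6 h, -5.88, -5.86 and -5.23 at 12 h and -5.78, -5.63 and -6.34 at 24 h. The groups overlapped at each time, and 24 h replicate 3, the lowest value, set the 24 h difference of -0.21 (SE 0.22), which was 0.01 without it. Klf4 had differences of -0.04, -0.02, -0.12 and -0.11 and Klf10, induced by TGF-beta, of 0.10, 0.10, 0.18 and 0.00. Srf (NM_001109302), the serum response factor itself, which binds the CArG box, had 0.01, -0.01, 0.02 and -0.06 with an SE of 0.12.

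Of the 4 tested effectors that act at the synapse or are secreted, 2, 1, 2 and 3 had a higher mean at the 4 times, and 0 passed. Arc (NM_019361), which promotes removal of AMPA receptors from synapses, was at -2.90, -2.69 and -2.58 in untreated samples. Treated samples were at -2.81, -2.67 and -2.74 at 2 h, -2.79, -2.72 and -2.80 at 6 h, -2.90, -2.69 and -2.74 at 12 h and -2.73, -2.55 and -2.85 at 24 h. In 11 of 12 treated samples Arc lay within the untreated range. Untreated it averaged -2.73 ± 0.16 (SD, n = 3) and treated -2.75 ± 0.09 (SD, n = 12), and its difference over the 4 times was -0.02 (SE 0.09, 95% interval -0.22 to 0.17). Its residual SD of 0.12 stood at percentile 10.8 of all features, and the array holds 10 spots of its probe.

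Nptx2 (NM_001034199), a secreted pentraxin that gathers AMPA receptors on interneurons, was at -0.96, -1.03 and -1.04 in untreated samples. Under treatment it was at -0.87, -0.96 and -1.01 at 2 h, -0.90, -1.10 and -0.92 at 6 h, -0.78, -1.16 and -0.58 at 12 h and -1.09, -0.82 and -0.74 at 24 h. Of the 12 treated samples 7 lay above all untreated ones and 3 below all, so the groups overlapped. Its difference was 0.17 (SE 0.14, 95% interval -0.13 to 0.47) at 12 h and 0.13 (SE 0.14) at 24 h. Without 12 h replicate 3 the former was 0.04. Inhba (NM_017128), which encodes the activin A subunit and protects neurons in rodents, was at -3.45, -3.53 and -3.78 in untreated samples. The treated samples of Inhba were at -3.53, -3.34 and -3.86 at 2 h, -3.49, -3.64 and -3.70 at 6 h, -3.14, -3.33 and -3.58 at 12 h and -3.86, -3.69 and -3.14 at 24 h. At 12 h 2 samples lay above the untreated range, and the difference there was 0.24 (SE 0.19, 95% interval -0.17 to 0.65). Rheb (NM_013216), the small GTPase that activates mTOR, was at 2.40, 2.18 and 2.26 in untreated samples. It was at 2.22, 2.13 and 2.08 at 2 h, 2.18, 2.25 and 2.37 at 6 h, 2.08, 2.28 and 2.36 at 12 h and 2.32, 2.23 and 2.12 at 24 h. Its groups overlapped at every time, and its difference at 2 h was -0.13 (SE 0.11, 95% interval -0.36 to 0.10).

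MAP kinase phosphatases, which end the kinase signal that induced them, had 2 of 4 genes with a higher mean at 2, 6 and 12 h and 1 at 24 h. Dusp1 (NM_053769), whose promoter above holds the full cyclic AMP response element, was at -5.41, -4.93 and -4.95 in untreated samples. Treated levels of Dusp1 were -5.34, -5.16 and -5.54 at 2 h, -5.08, -5.22 and -5.45 at 6 h, -5.57, -5.11 and -5.38 at 12 h and -5.30, -4.72 and -5.56 at 24 h. Untreated replicate 1 was the low one of its group and lay among the treated samples, and 24 h replicate 2 was the highest of all. The largest differences were -0.25 (SE 0.21, 95% interval -0.70 to 0.20) at 2 h and -0.26 (SE 0.21, 95% interval -0.71 to 0.19) at 12 h. Under normexp the signs at the 4 times turned to 0.03, 0.16, 0.22 and 0.16 for 2, 6, 12 and 24 h, beside the medians of all features given above, so no direction is given. Dusp5 (NM_133578), a nuclear phosphatase of ERK, was at -1.15, -0.99 and -1.22 in untreated samples. At the 4 times it was at -0.99, -0.95 and -1.25 at 2 h, -0.999, -0.91 and -1.22 at 6 h, -1.22, -0.95 and -1.11 at 12 h and -1.13, -0.92 and -1.09 at 24 h. The groups overlapped throughout, and its difference at 6 h was 0.08 (SE 0.13, 95% interval -0.19 to 0.35). Dusp4 stood at -0.09, -0.07, 0.04 and -0.10 and Dusp6 at 0.01, 0.00, -0.06 and -0.07.

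The remaining genes act in signalling, cell cycle arrest or RNA decay, and of 7 tested 4, 4, 5 and 2 had a higher mean at the 4 times. Ier2 (NM_001009541), a nuclear immediate early protein, was at 0.70, 0.65 and 0.73 in untreated samples and at 0.57, 0.55 and 0.55 at 2 h. The tight samples at 2 h lay below all untreated ones, at a difference of -0.14 (SE 0.27, 95% interval -0.71 to 0.44). Later samples were at 0.61, 1.23 and 0.67 at 6 h, 0.87, 0.70 and 1.45 at 12 h and 0.43, 0.99 and -0.25 at 24 h. These spread widely to either side, with 12 h replicate 3 highest and 24 h replicate 3 lowest. The difference was 0.31 (SE 0.27, 95% interval -0.26 to 0.89) at 12 h and -0.31 (SE 0.27, 95% interval -0.88 to 0.27) at 24 h. Leaving out those samples gave 0.09 and 0.01. The spots of the Ier2 probe had a median SD within an array of 0.05, and of 0.36 on the array of 12 h replicate 3.

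Ier3 (NM_212505), a stress-induced regulator of survival, was at -4.33, -4.09 and -4.10 in untreated samples. In treated ones it was at -4.27, -4.01 and -3.79 at 2 h, -4.30, -4.25 and -4.24 at 6 h, -3.95, -4.20 and -4.14 at 12 h and -4.21, -3.98 and -3.87 at 24 h. At 6 h the 3 samples were close together within the untreated range, and at 24 h 2 of 3 lay above it. Its difference at 24 h was 0.15 (SE 0.14, 95% interval -0.14 to 0.44). Ier5 (NM_001025137), an activator of heat shock factor, was at 1.64, 1.95 and 1.46 in untreated samples. Under treatment it was at 1.64, 1.89 and 1.73 at 2 h, 1.72, 1.92 and 1.76 at 6 h, 1.67, 1.75 and 1.84 at 12 h and 1.73, 1.59 and 1.71 at 24 h. All 12 treated samples of Ier5 lay within the untreated range, and the difference at 6 h was 0.12 (SE 0.13, 95% interval -0.15 to 0.40). The second probe of Ier5 gave -0.23, -0.06, 0.04 and -0.06, beside 0.08, 0.12, 0.07 and -0.00 for the probe tested. Btg2, an antiproliferative p53 target, had -0.11, -0.09, -0.01 and 0.00, and Rgs2, which speeds the shut-off of G proteins, had -0.01, 0.01, 0.14 and -0.05. Sik1, a kinase that dampens CREB coactivators, had 0.07, -0.09, -0.26 and -0.06 with the widest residual SD of the set, 0.38. Gadd45b, which takes part in activity-induced DNA demethylation in mouse hippocampus, had 0.05, 0.02, 0.11 and -0.02.

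Some genes could not be tested because their probes were not well above background. Npas4 (NM_153626), the neuron-specific factor most selective for calcium entry, was on 0 of 16 arrays, as were Fosl1, Maff, the cyclooxygenase gene Ptgs2 and Zfp36, whose protein promotes decay of mRNAs with AU-rich elements. Their levels are bounds, and no fold is given. Both probes of Egr3 were dim, and 1 of the 16 arrays, that of 2 h replicate 2, read its brighter probe well above background.

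Few of the genes had groups that did not overlap, as among all features. At 2 h, 4 of 32 (12.5%) were so separated, namely Fos on the higher side and Klf6, Egr1 and Ier2 on the lower, against 6.35% of all features. At 6 h there was 1 (3.13%, Klf6) against 3.84%, at 12 h 0 against 5.07% and at 24 h 1 (3.13%, Klf6) against 2.94%. Klf6 and Egr1 were no longer separated at any time with the repeat array of untreated replicate 1 alone. The genes separated at 2 h were then 3 (9.38%; Fos and Nr4a3 higher, Ier2 lower) against 6.19% of features, and 0 at the other times. For all treated against untreated samples there were 0 against 0.0607%, and for 24 h against 2 h 1 (Nr4a3) against 2.91%. All comparisons with untreated share the same 3 untreated samples, and whether 2 h differs from the other times in this count was not tested.

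**Figure D3:**
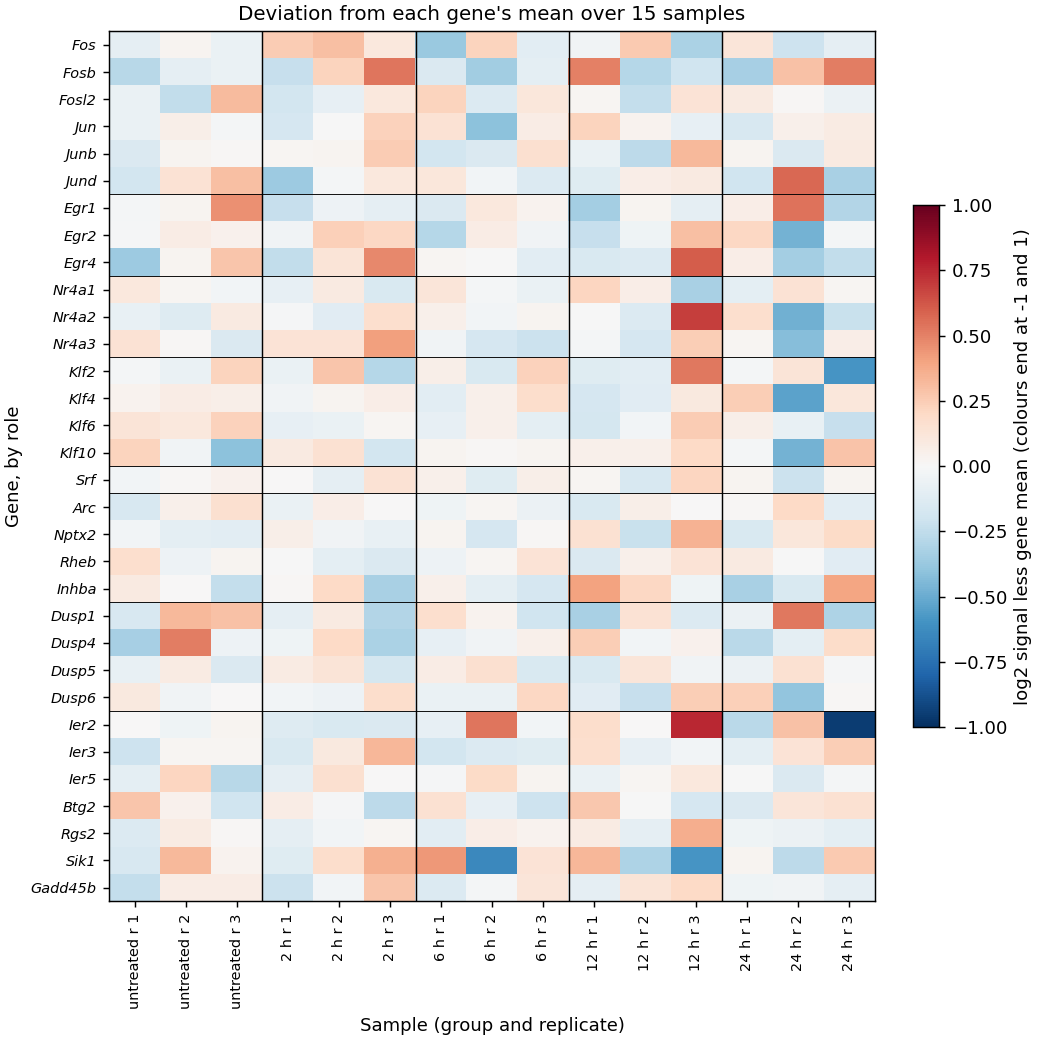
Deviation of each sample from the gene's mean over 15 samples, in log2 units (colour, red higher and blue lower), for the 32 tested genes (rows, by role) and the samples by group and replicate (columns); vertical lines part the groups. Single samples stand out more than groups, such as 12 h replicate 3, which was the highest sample for 11 of the 32 genes.

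Residual SDs of the genes ran from 0.11 (Rheb) to 0.38 (Sik1), and 0 of 32 were among the 10% of features with the highest. Sample 12 h replicate 3 was the highest of the 15 for 11 of the 32 genes (34.4%), against 23.9% of all features. Sample 24 h replicate 2 was the lowest for 7 (21.9%), against 14.4%. Untreated replicate 1, which enters every comparison with untreated, was the lowest for 6 (18.75%), against 8.85%. On the array of 12 h replicate 3 the within-array spot SD was also at its highest for all 7 genes with 10 spots, from 0.11 for Dusp5 to 0.64 for Nr4a1. Nr4a1 read lowest in that sample, and without it the 12 h difference of Nr4a1 was 0.11 rather than -0.05.

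The repeat array of untreated replicate 1 gives a measure of the spread between arrays of 1 sample. Its log2 signal differed from the first array by -0.38 for Rheb, -0.37 for Egr2, -0.34 for Klf6, -0.32 for Btg2, 0.28 for Dusp4 and 0.28 for Jun, and by a median size of 0.08 over the 32 genes and 0.11 over all features. For the mean of the 4 times, 15 genes had a higher mean than untreated with the first array alone (46.8% of features) and 19 with the repeat array alone (54.1%). The first of the arrays was also the one with the coarser spots.

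**Figure D4:**
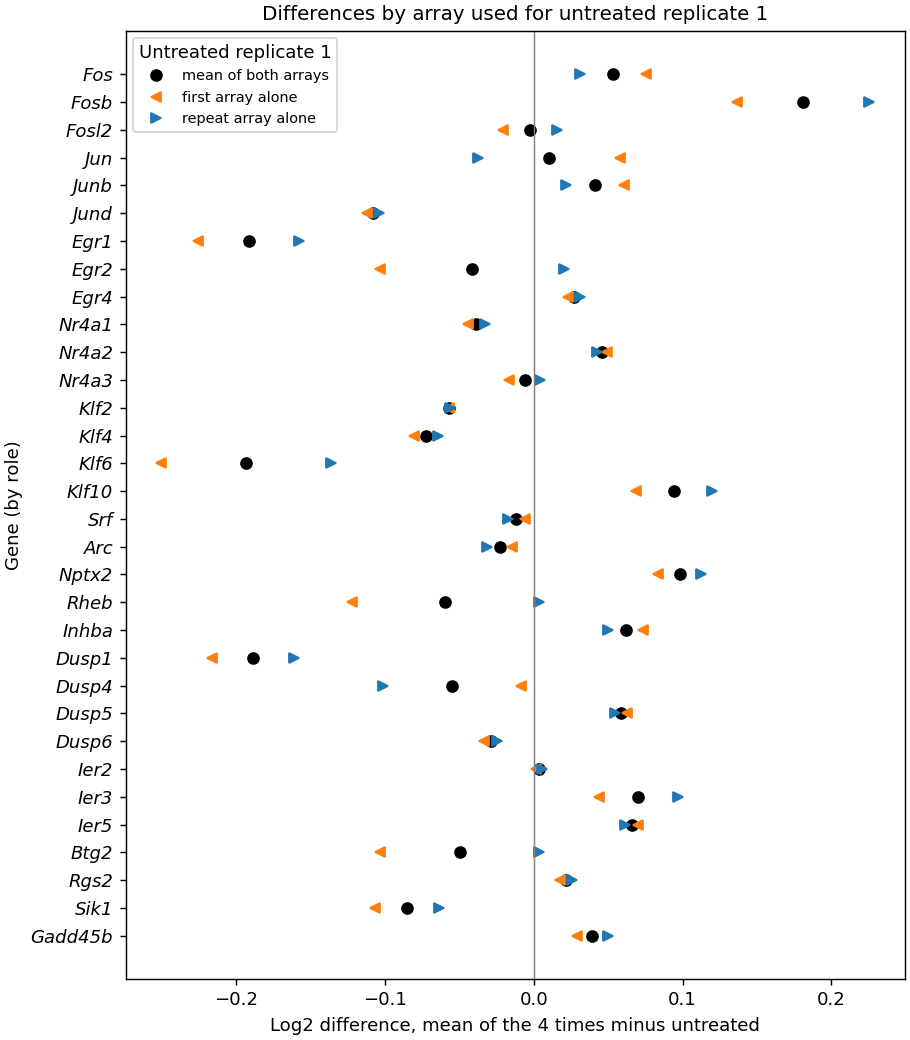
Log2 difference of the mean of the 4 times from untreated (horizontal axis) for the 32 tested genes (vertical axis, by role), with untreated replicate 1 taken as the mean of both its arrays (black), its first array alone (orange) or its repeat array alone (blue). Klf6 moves from -0.25 with the first array to -0.14 with the repeat array, and Egr2 from -0.10 to 0.02.

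Further genes of the pathway came from 3 lists. Of 28 further primary response genes tested, such as Atf3 and Myc, 0 passed limma's test at any time, and 17, 16, 17 and 15 had a higher mean at 2, 6, 12 and 24 h, beside 50.5%, 47.9%, 55.4% and 54.6% of all features. Their median differences were 0.01, 0.04, 0.02 and 0.01. Ccn1, a secreted matrix protein gene, was the only one of the 28 at an unadjusted p under 0.05 at any of the 4 times, with 1.32 (SE 0.57) at 6 h, where 0.739% of all features were. Of 26 delayed effector genes 0 passed, and 12, 12, 9 and 6 had a higher mean, with medians of -0.01, -0.02, -0.04 and -0.05. Bdnf, the neurotrophin released by active neurons, stood at -0.18 (SE 0.15) at 2 h and at -0.15 (SE 0.15) at 24 h. Crh, the stress peptide corticotropin-releasing hormone, had 0.68 (SE 0.32) at 24 h, and was the 1 of the 26 at an unadjusted p under 0.05 there, against 0.866% of features. Of 33 upstream kinases and transcription factors 0 passed, and 16, 19, 19 and 16 had a higher mean. Camk2b, a subunit of the calcium-activated kinase CaMKII, had -0.52 (SE 0.23) at 12 h, and was the 1 of the 33 at an unadjusted p under 0.05 there, against 2.32% of features. The 12 h group includes the noisy array of replicate 3, and the Camk2b difference without that sample is not given here.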

How the data were processed

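Expression was measured in 15 samples (16 arrays) of cultured rat hippocampal neurons, and groups were taken from the sample titles. Spot intensities in the deposited scanner files come, per the file headers, from Agilent Feature Extraction 11.5.1.1, background-subtracted and not scaled between arrays; labelling used 200 ng of RNA, per the labels' protocols. A further table deposited by the authors carries no stated unit; set against the scanner files its values are a standard score per array (log signal less the array mean, divided by the SD, r = 0.999996), so scale, centring and direction are known. In it, the scores of 24 h replicate 1 match the scanner file of 24 h replicate 3 and the reverse, and scanner files were used as labelled. Column medians of the score lay between -0.03 and 0.03.

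From the 62976 spots of an array, 4259 control spots and all spots marked as outliers were dropped, and those of each of the 30367 probes averaged. The value is log2 of the processed intensity minus the array's 75th percentile over non-control spots. The 2 arrays of untreated replicate 1 were averaged and counted as 1 sample. Accessions were matched, without versions, to RefSeq genes, where 18750 probes had a single symbol (15709 symbols), and others were tested by probe. A gene's brightest probe was used, and only if all arrays of some group had it well above background, which left 18122 features (11078 named genes). Values of genes in text are those of 1 probe, and levels of different probes are not compared.

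Comparisons used limma 3.58.1 (R 4.3.3, with version 1.17.8 of data.table) in 1 fit over all 15 samples, with no covariate, 10 residual degrees of freedom and 3.56 from the prior, two-sided, and p-values were adjusted by Benjamini-Hochberg over all features of a comparison at a threshold of 0.05. The fit was tested on simulated data. Tables were made in Python 3.11.15 with pandas 2.3.3. Intervals are 95% intervals of the fit. Values in every sample are given for Fos, Fosb, Junb, Egr1, Arc, Nr4a1 and Dusp1 and for the 3 genes with the smallest unadjusted p in each direction at each time; of other lists, the 2 genes with the smallest p in each direction and time may be named. The genes and lists were chosen with earlier results of these data known. The 28 alternatives covered normalization, background correction, the deposited scores, filters, probe choice, slide, replicate number, the repeat array and each replicate left out. For normexp the median spot signal was used, as the mean signal was not among the columns.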

Additional observations from a re-analysis of the deposited data

Results flagged for a closer look

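Egr3, a zinc finger factor of the EGR family, was outside the tests because its probes were dim. Its brighter probe was well above background on 1 of 16 arrays, that of 2 h replicate 2, at a normalised log2 signal of -5.91. In untreated samples 1, 2 and 3 it read -7.53, -6.77 and -6.95, not well above background. The other samples at 2 h were not well above background either, so a single array carries the signal.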

How the results depend on the processing

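The count of these genes past an adjusted p of 0.05 was 0 in all 7 comparisons under each of the 28 alternatives. Over all features the count was also 0, except that within slide 1, where each group has 1 or 2 samples, 4 features passed at 12 h (smallest adjusted p in limma 0.0209), none of them a gene of the set. The median log2 difference of the genes stayed between -0.03 and 0.04 at 2 h, -0.06 and 0.03 at 6 h, -0.06 and 0.01 at 24 h, -0.03 and 0.03 for the mean of the 4 times and -0.09 and -0.01 for 24 h against 2 h. At 12 h it ran from -0.04 to 0.12, the latter under normexp background correction, where the median of all features was 0.10. Leaving out each replicate in turn gave 0 genes and 0 features called in every comparison, and medians at 12 h from -0.04 to 0.08. Of 192 differences of single genes, 39 kept their sign under every alternative, those of Klf6 at 2, 6 and 24 h among them. With the replicate number as a block (replicate block) the differences were identical and the count of genes called was 0. Correlations of deviations from the group mean ran from -0.42 to 0.42 over 30 pairs of samples that share a number (median 0.13, 19 above 0.1) and had a median of -0.08 over 60 other pairs (11 above 0.1). Pairs that share a number were thus above 0.1 more often than other pairs, though not all of them were. Replicate 3 of untreated, 2 h, 6 h and 12 h lay on slide 2, and replicate 1 of 2 h, 6 h and 12 h on slide 1. Number and slide are therefore partly confounded, and their parts in these correlations were not tested. Of 15 samples 7 correlated best with one of their own number. The main fit did not take the numbers as pairing the samples, and whether they do was not settled. The SEs and intervals given are those of the fit without pairing. The precision is limited by 3 samples a group, by the slide and by the noisier arrays named above. Slide 1 holds 1 sample each of 12 h and 24 h. On slide 2, 2 h replicate 3 and 6 h replicate 3 are the only samples of their times. Time and slide are therefore partly confounded.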
